A study of Malus domestica with 18 samples.

Results

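Plant hormones are small molecules whose levels are set by enzymes of synthesis and inactivation, and whose action is carried by receptors, repressors and response proteins. In fleshy fruit, auxin, gibberellin and cytokinin are known for their roles in early growth, and ethylene, abscisic acid and jasmonate for their roles in ripening and in responses to light, water loss and wounding. The 48 genes described here are those of the 2856 genes of the deposited table whose annotation names auxin, gibberellin, abscisic acid, 1-aminocyclopropane-1-carboxylate (ACC, the precursor of ethylene), cytokinin, brassinosteroid, indole-3-acetic acid or jasmonate. The same rule leaves out descriptions with words for kinases, transcription factors, chloroplastic proteins and ubiquitin or F-box proteins, but no gene with the hormone words matched these. The 48 genes comprised 19 of auxin, 11 of ethylene, 6 of gibberellin, 5 of jasmonate, 3 of abscisic acid, 3 of cytokinin and 1 of brassinosteroid. No gene was found by the words for an ethylene receptor.

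RNA-seq was carried out on the fruit skin of "Golden Delicious" apple. Fruits of the T group were enclosed at 20 days after flowering (DAF) in light-tight paper bags of 2 layers, and fruits of the CK group were left exposed on the tree. Skin was taken at DAF30 (T1 and CK1), DAF60 (T2 and CK2) and DAF150 (T3 and CK3), giving 6 groups of 3 libraries. Each library pooled the skin of 3 fruits. The replicates were trees, and it is not stated if a tree gave fruit at more than 1 stage or to both T and CK. All samples are of 1 cultivar, so the values hold for the skin of that cultivar only, and unbagged skin of this cultivar is the russeted one. Levels are FPKM, fragment numbers per gene after scaling for gene length and library size. The paper gives an average sequencing output, but fragment numbers per gene were not used here, so no counting error is given for low values.

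All genes of the deposited table had been chosen by the authors for a difference between T and CK over all libraries. Counts of T against CK below therefore describe genes chosen for that contrast and are not independent evidence of a bagging response. Changes between stages were not the contrast of that choice. They are still measured in the chosen genes and the same libraries, as are changes of the T and CK difference, so they are not free of it. Pearson's r of log2(FPKM + 1) between libraries lay between 0.895 and 0.959 within groups and between 0.296 and 0.938 between groups. Skin holds several cell types, and in bulk tissue fewer cells of a type and less RNA per cell cannot be told apart. Summed FPKM of 17 chlorenchyma genes (photosystem and Rubisco genes) was 483 to 587 in T2 against 2263 to 4932 in CK2, and 483 to 864 in T3 against 4215 to 5732 in CK3. Summed FPKM of 9 phellem (cork) genes was 21.98 to 29.9 in T2 against 36.1 to 181 in CK2. The 25 vascular and secondary wall genes summed to 10.55 to 13.8 in T2 against 30.7 to 87.5 in CK2. At DAF150 they summed to 38.3 to 214 in T3 and 18.6 to 72.7 in CK3, which overlapped. The 39 epidermis genes summed to 214 to 329 in T2 and 424.5 to 923 in CK2. The 24 stress genes summed to 308 to 491 in T3 and 1251 to 4357 in CK3. No list summed to 0 in any library. At DAF30 the T1 and CK1 sums of every list overlapped, and at DAF150 those of the epidermis, phellem and vascular lists did. The part of these lists in the results below was not tested.

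Most of the hormone genes were weakly expressed. The highest of the 6 group means was under 1 FPKM in 20 of the 48 genes, at least 5 FPKM in 12 and at least 10 FPKM in 5. The 5 were the ACC oxidase MD09G1114800, the gibberellin-responsive protein MD11G1229600, the jasmonate-induced protein MD09G1163100, the auxin repressor MD17G1183500 and the auxin-induced protein MD08G1014900. The highest group mean was found in T1 for 1 gene, in T2 for 5 and in T3 for 6, and in CK1 for 9, in CK2 for 12 and in CK3 for 15. The mean over 9 libraries was higher in T for 12 genes and higher in CK for 36 (75.0%), beside 78.64% of the whole table with the higher mean in CK. The filter of at least 1 FPKM in at least 3 libraries kept 25 of the 48 genes for testing, among 1399 of the 2856 genes in all.

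**Figure D1:**
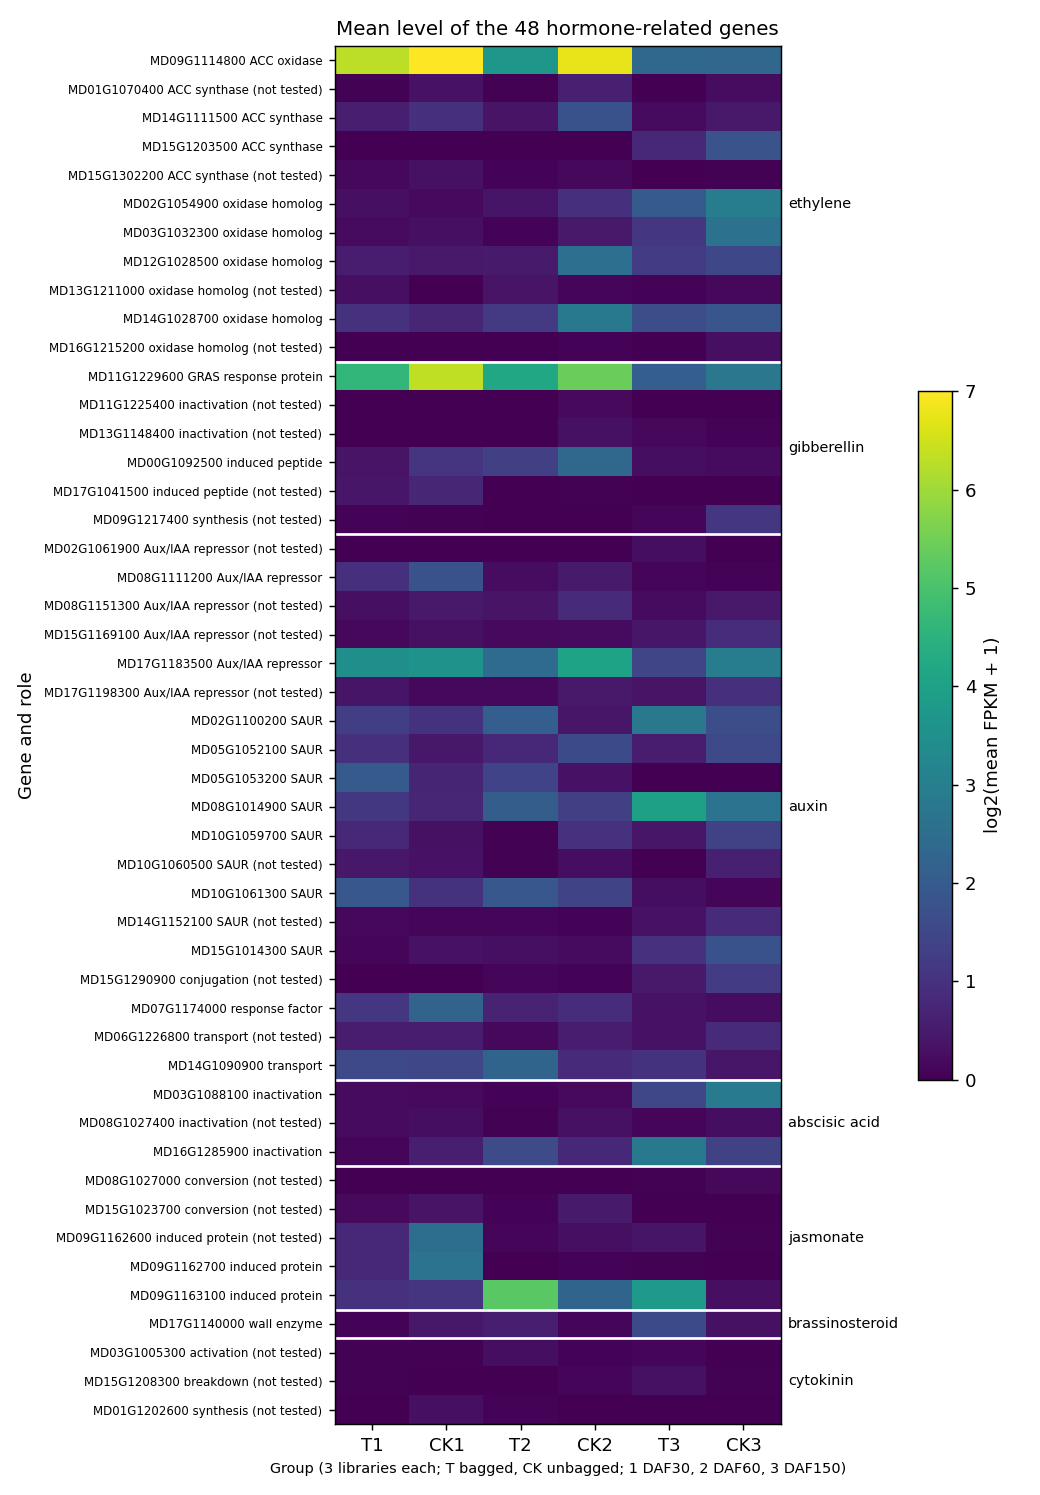
Mean level of each of the 48 hormone-related genes (rows, grouped by hormone) in the 6 groups (columns, T left of CK at each stage, 3 libraries each), as log2(mean FPKM + 1). Most rows are dark, with 20 genes under 1 FPKM in all groups, and the brightest cells are those of the ACC oxidase MD09G1114800 in CK1 and CK2.

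Ethylene is made in 2 enzymatic steps, of which ACC synthase catalyses the first and ACC oxidase the second. The ACC oxidase MD09G1114800 (GDDH13 v1.1, chromosome 9, 8683053 to 8747621) was the most highly expressed of the 48 genes. At DAF30 it had 71.8, 65.5 and 99.25 FPKM in T1 and 239, 80.4 and 63.2 FPKM in CK1. At DAF60 it had 9.53, 13.8 and 12.9 FPKM in T2, against 98.85, 37.5 and 186 FPKM in CK2, so every T2 library lay below every CK2 library. At DAF150 it had 5.6, 2.7 and 4.09 FPKM in T3 and 3.9, 4.22 and 3.7 FPKM in CK3. The log2 fold change of FPKM + 1, T over CK, was -2.79 ± 0.50 at DAF60 (SE here and throughout, limma, adjusted p = 2.14e-04), and -3.40 without CK2 replicate 2, the lowest of the CK2 libraries. At DAF30 and DAF150 the groups overlapped and the difference did not pass the test. The larger fall of this gene came at different times in the groups. In T skin the log2 change at DAF60 against DAF30 was -2.60 ± 0.50 (adjusted p = 0.00127), while in CK skin the large change was that at DAF150 against DAF60 (-4.18 ± 0.50, adjusted p = 3.82e-06, and -4.79 without CK2 replicate 2). The annotated span of this gene is 64569 bp, far longer than that of the other ethylene genes except MD02G1054900.

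Of the 4 ACC synthase genes, 2 were tested, and all 4 had the lower mean in T, as did 78.64% of the whole table. MD14G1111500 had 0.12 to 0.46 FPKM in T2 and 0.51 to 4.68 FPKM in CK2. It passed the filter through CK libraries only, so its log2 fold change at DAF60, -1.19 ± 0.33, is given as a description without its p, and the value was -0.03 with each library centred on its median. MD15G1203500, annotated as ACC synthase 3a-2, was listed at 0 in all 12 libraries of DAF30 and DAF60. At DAF150 it had 1.15, 0.7 and 0.3 FPKM in T3 and 5.83, 1.21 and 0.42 FPKM in CK3, which overlapped and did not pass the test (adjusted p = 0.118). The untested MD01G1070400 had 0.03 to 0.04 FPKM in T2 and 0.33 to 0.77 FPKM in CK2.

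A further 6 genes are annotated as ACC oxidase homologs. Such homologs are oxygenases named for their similarity to ACC oxidase, and the name does not show that they make ethylene. The 4 that were tested are described in pairs by the stage of the larger difference. MD14G1028700 (chromosome 14, 2561176 to 2563221) had 2.04, 0.98 and 0.82 FPKM in T2, against 5.61, 8.3 and 4.44 FPKM in CK2. In T1 it had 0.66, 0.3 and 2 FPKM and in CK1 0.97, 0.24 and 0.87 FPKM, and in T3 2.01, 2.05 and 2.55 FPKM and in CK3 1.89, 4.88 and 1.33 FPKM. Its groups were apart at DAF60 and overlapped at the other stages, with a log2 fold change of -1.64 ± 0.37 at DAF60 (adjusted p = 0.00111), which was -0.48 and not called after centring on library medians. MD12G1028500, with the same annotation (homolog 4-like), also had groups apart at DAF60, with a log2 fold change of -1.96 ± 0.29 from 0.24 to 0.65 FPKM in T2 and 3.15 to 8.07 FPKM in CK2. In T skin MD12G1028500 reached 1 FPKM only in T3 replicates 1 and 3, too few for the filter, so this value is a description. In CK skin both genes were higher at DAF60 than at DAF30, by 2.06 ± 0.37 (adjusted p = 4.10e-04) and 2.01 ± 0.29 (adjusted p = 1.08e-04). In T skin the changes were 0.25 and -0.01 and did not pass the test.

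The other pair, MD03G1032300 and MD02G1054900, differed most at DAF150. Both are annotated as homolog 3-like with the same best match, so reads may be shared between them, and the model of MD02G1054900 spans 244414 bp and overlaps 2 other genes of the table. MD03G1032300 (chromosome 3, 2604644 to 2606110) had 1.39, 0.87 and 1.19 FPKM in T3, against 8.19, 3.68 and 3.69 FPKM in CK3. It was at or under 0.32 FPKM in all T1, CK1 and T2 libraries, and between 0.29 and 0.46 FPKM in CK2. All T3 libraries lay below all CK3 libraries, with a log2 fold change of -1.46 ± 0.23. In T skin MD03G1032300 reached 1 FPKM only in T3 replicates 1 and 3, too few for the filter, so this value is a description. MD02G1054900 (chromosome 2, 4206362 to 4450775) had 2.9, 3.07 and 2.85 FPKM in T3, against 9.68, 5.86 and 4.83 FPKM in CK3. In T2 it had 0.31, 0.35 and 0.27 FPKM, against 1.02, 1.06 and 0.77 FPKM in CK2, and in T1 and CK1 it lay between 0.08 and 0.27 FPKM. The log2 fold change was -0.94 ± 0.21 at DAF150 (adjusted p = 0.00168), and -0.57 ± 0.21 at DAF60 (adjusted p = 0.0241). When each library was centred on its median, the change at DAF60 was 0.59 and that at DAF150 -0.47, and neither passed the test. The call at DAF60 was also lost without T2 replicate 1 (-0.57), T2 replicate 3 (-0.55), CK2 replicate 1 (-0.54) or CK2 replicate 2 (-0.53). MD02G1054900 was higher at DAF150 than at DAF60, by a log2 change of 1.59 ± 0.21 in T skin and of 1.95 ± 0.21 in CK skin. Outside DAF150 it reached 1 FPKM only in CK2 replicates 1 and 2, too few for the filter, so these changes are descriptions. MD03G1032300 passed the filter through DAF150 libraries only, and its changes of 1.03 ± 0.23 in T and 2.09 ± 0.23 in CK are descriptions. The 2 untested homologs had group means of at most 0.28 FPKM.

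**Figure D2:**
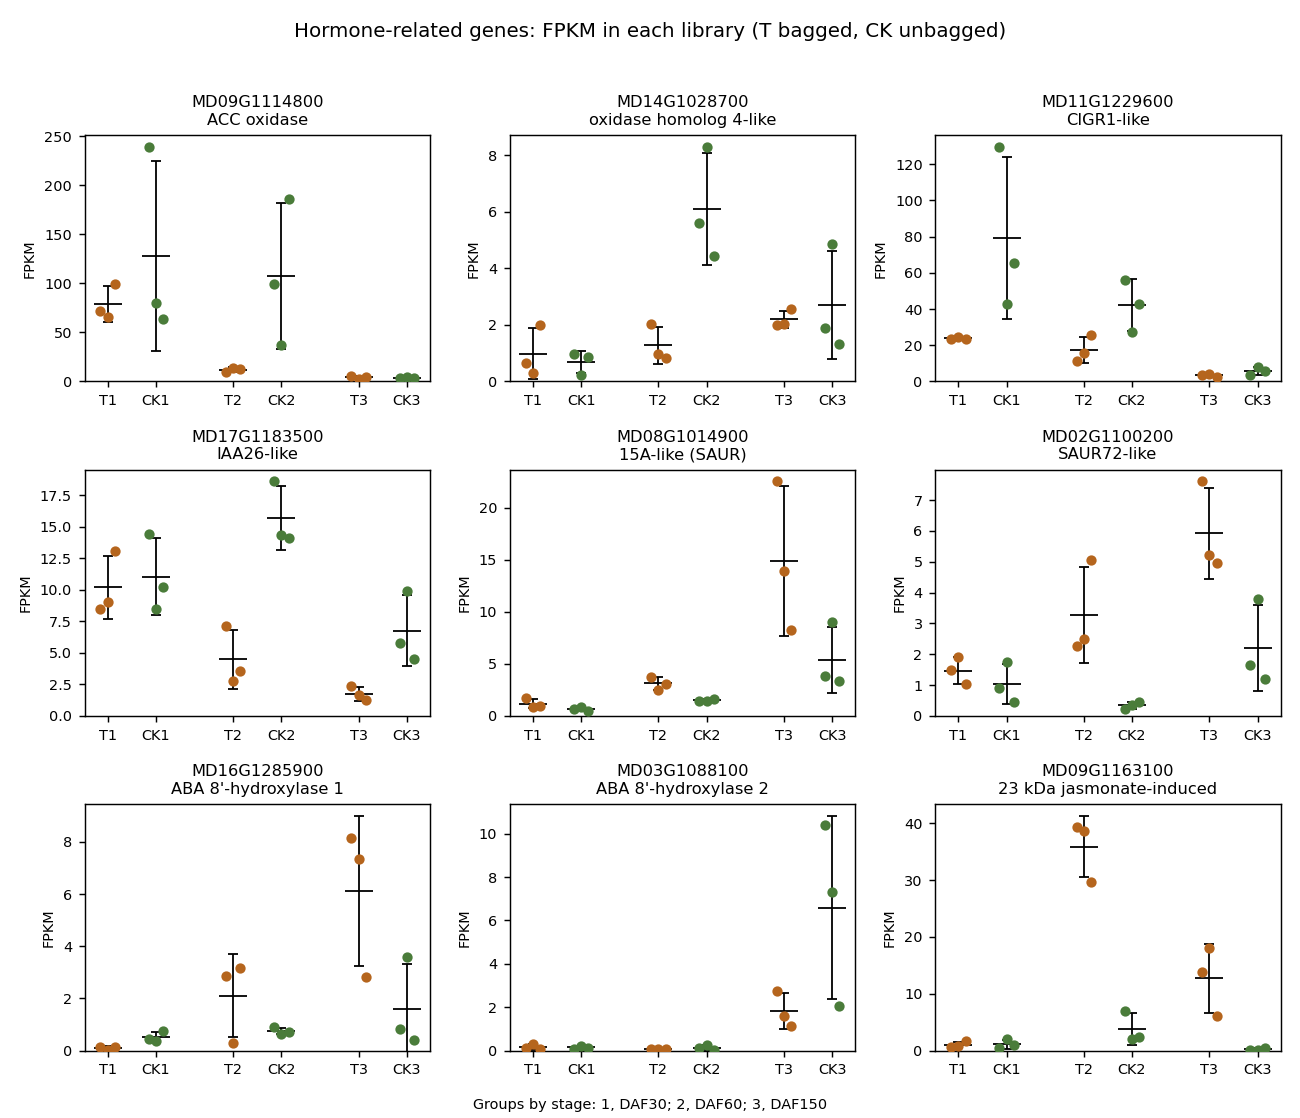
FPKM of 9 hormone-related genes in each library (points, T brown and CK green, with T left of CK at each stage), with the group mean (horizontal line) and SD (bar, cut at 0, n = 3). The ACC oxidase MD09G1114800 lies at 9.53 to 13.8 FPKM in T2, below all CK2 libraries, and the jasmonate-induced protein MD09G1163100 at 29.65 to 39.3 FPKM in T2, above all CK2 libraries.

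Among the gibberellin genes, MD11G1229600 (chromosome 11, 33402652 to 33405823) encodes a GRAS protein like rice CIGR1, whose transcript is known in rice to respond to gibberellin and to chitin fragments. It had 23.3, 24.6 and 23.3 FPKM in T1, against 129.6, 43 and 65.4 FPKM in CK1. In T2 it had 11.3, 15.7 and 25.5 FPKM, against 56.25, 27.5 and 42.7 FPKM in CK2. In T3 it had 3.48, 4.03 and 2.41 FPKM, and in CK3 3.74, 8.07 and 5.86 FPKM. T and CK libraries were apart at DAF30 and DAF60 and overlapped at DAF150. The log2 fold change was -1.55 ± 0.40 at DAF30 (adjusted p = 0.0151), and -1.24 ± 0.40 at DAF60 (adjusted p = 0.0107). The first was -1.13 and lost its call without CK1 replicate 1 (adjusted p = 0.0956). The second lost its call without T2 replicate 1 (-0.98) or CK2 replicate 1 (-1.01), and was -0.08 with libraries centred on their medians. The transcript declined with fruit age in both groups, with log2 changes at DAF150 against DAF60 of -2.05 ± 0.40 in T (adjusted p = 6.06e-04) and -2.64 ± 0.40 in CK (adjusted p = 3.56e-05).

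MD00G1092500, a gibberellin-regulated peptide of the GASA family of small cysteine-rich proteins, was highest at DAF60, with 0.76, 1.96 and 1.76 FPKM in T2 and 2.33, 5.12 and 4.81 FPKM in CK2. Its log2 fold change there was -1.01 ± 0.31, -0.78 and no longer called without T2 replicate 1, and 0.15 with libraries centred on their medians. In T skin it reached 1 FPKM only in T2 replicates 2 and 3, too few for the filter, so the fold change is a description. The other 4 gibberellin genes were too low to test. They include MD09G1217400, annotated as a gibberellin 3-oxidase, which makes active gibberellins and had 0.02 to 0.12 FPKM in T3 and 0.65 to 1.5 FPKM in CK3. The 2 gibberellin 2-oxidases, enzymes of gibberellin inactivation, had group means of at most 0.25 FPKM. All 6 gibberellin genes had the lower mean in T over the 9 libraries, beside 78.64% of the whole table.

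Auxin acts by the removal of Aux/IAA repressors from auxin response factors. Among the 6 Aux/IAA genes, MD17G1183500 (IAA26-like, chromosome 17, 21576812 to 21580307) was the most highly expressed. At DAF30 it had 8.46, 9.05 and 13.04 FPKM in T1 and 14.4, 8.44 and 10.2 FPKM in CK1, which overlapped. At DAF60 it had 7.1, 2.77 and 3.56 FPKM in T2, against 18.6, 14.35 and 14.1 FPKM in CK2. At DAF150 it had 2.35, 1.66 and 1.24 FPKM in T3, against 5.82, 9.94 and 4.53 FPKM in CK3. The T libraries lay below all CK libraries of the same stage at DAF60 (log2 fold change -1.68 ± 0.34, adjusted p = 5.05e-04) and at DAF150 (-1.46 ± 0.34, adjusted p = 0.00192). With libraries centred on their medians, the change at DAF60 was -0.52 and no longer called, and that at DAF150 was -0.99 and still called. The other tested Aux/IAA gene, MD08G1111200 (IAA2-like), had 0.81 to 1.1 FPKM in T1 and 1.03 to 4.59 FPKM in CK1 and did not pass the test at any stage. With libraries centred on their medians it was called higher in T at DAF60 (0.87). Group means of the 4 untested Aux/IAA genes were at most 0.92 FPKM. MD07G1174000, annotated as auxin response factor 18, a DNA-binding protein of auxin signalling, had 0.85 to 1.71 FPKM in T1 and 2.8 to 5.06 FPKM in CK1. Its log2 fold change was -1.09 ± 0.23 at DAF30 and did not pass the test later. In T skin it reached 1 FPKM only in T1 replicate 1 and T2 replicate 3, too few for the filter, so the fold change is a description. With libraries centred on their medians, MD07G1174000 was called higher in T at DAF60 (0.95).

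The SAUR group holds 9 genes of small auxin up-regulated RNAs, short proteins known in Arabidopsis for promoting cell expansion, and 7 of them were tested. MD08G1014900 (15A-like, chromosome 8, 1133020 to 1133337) was the most highly expressed of these. It had 1.69, 0.87 and 0.98 FPKM in T1, and 0.63, 0.91 and 0.47 FPKM in CK1. In T2 it had 3.79, 2.54 and 3.12 FPKM, above the 1.48, 1.42 and 1.63 FPKM of CK2. In T3 it had 22.55, 13.9 and 8.26 FPKM, and in CK3 3.84, 9.04 and 3.34 FPKM. At DAF150 the lowest T library lay below the highest CK library, and the log2 fold change was 1.31 ± 0.35 (adjusted p = 0.00491). At DAF60 it was 0.72 ± 0.35 and did not pass the test (adjusted p = 0.0726), although the groups were apart. With libraries centred on their medians the DAF60 value was 1.875 and was called (adjusted p = 1.36e-04). The gene was higher at DAF150 than at DAF60 in T skin (log2 change 1.85 ± 0.35, adjusted p = 4.16e-04) and in CK skin (1.25 ± 0.35, adjusted p = 0.00548).

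MD02G1100200 (SAUR72-like, chromosome 2, 7980868 to 7981233) had 2.26, 2.49 and 5.07 FPKM in T2, against 0.23, 0.37 and 0.45 FPKM in CK2. In T3 it had 7.61, 5.21 and 4.95 FPKM, against 1.64, 3.8 and 1.19 FPKM in CK3. In T1 it had 1.48, 1.91 and 1.03 FPKM and in CK1 0.9, 1.74 and 0.46 FPKM, which overlapped. Its log2 fold change was 1.61 ± 0.33 at DAF60 (adjusted p = 5.68e-04) and 1.17 ± 0.33 at DAF150 (adjusted p = 0.00750). MD05G1053200 was higher in T at DAF30 by 1.25 ± 0.25 and at DAF60 by 1.01 ± 0.25, and was listed at 0 in all T3 and CK3 libraries. In CK skin it reached 1 FPKM only in CK1 replicate 1, too few for the filter, so these values are descriptions. MD10G1061300 (SAUR50) was higher in T1 than in CK1 by 0.86 ± 0.23 (adjusted p = 0.0199), a call lost without T1 replicate 1 (0.84), T1 replicate 3 (0.70) or CK1 replicate 3 (0.81). Against these 4 genes, 2 SAUR genes were lower in T. MD10G1059700 had a log2 fold change of -0.94 ± 0.32 at DAF60, which was 0.22 with libraries centred on their medians. In T skin it reached 1 FPKM only in T1 replicate 2, too few for the filter, so the fold change is a description. This gene was under the filter, and so not tested, in 3 of the 18 fits that left out a library. MD05G1052100 had a log2 fold change of -0.999 ± 0.35 at DAF150 (adjusted p = 0.0288), no longer called without T3 replicate 1 (-0.82), T3 replicate 3 (-0.99), CK3 replicate 1 (-1.01) or CK3 replicate 2 (-0.79). With libraries centred on their medians it was -0.54 and not called (adjusted p = 0.223), so neither lower call of a SAUR gene was kept under that scaling. The remaining tested SAUR gene, MD15G1014300, had 0.79 to 1.4 FPKM in T3 and 0.7 to 4.63 FPKM in CK3. It was not called in T against CK at any stage. The untested SAUR genes had group means of at most 0.8 FPKM. Over 9 libraries the mean was lower in T for 5 of the 9 SAUR genes and higher for 4, beside 78.64% of the whole table lower in T.

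The auxin efflux carriers of the PIN family move auxin out of cells. MD14G1090900 (carrier 1b) had 3.14 to 4.5 FPKM in T2 and 0.76 to 0.92 FPKM in CK2, with a log2 fold change of 1.39 ± 0.24. In CK skin it reached 1 FPKM only in CK1 replicates 2 and 3, too few for the filter, so its T against CK values are descriptions. At DAF150 the value was 0.60 ± 0.24, and the call was lost on leaving out any of 14 of the 18 libraries, with values between 0.51 and 0.67. Carrier 1c, MD06G1226800, was not tested and had group means of at most 0.78 FPKM. MD15G1290900, a GH3-type enzyme that joins auxin to amino acids, had 0.17 to 0.68 FPKM in T3 and 0.94 to 1.95 FPKM in CK3 and was not tested.

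Abscisic acid is inactivated by 8'-hydroxylases, and the 3 abscisic acid genes all carry this annotation. Opposite directions were measured for 2 of them at DAF150. MD16G1285900 (8'-hydroxylase 1, chromosome 16, 40864307 to 40867323) had 8.16, 7.34 and 2.82 FPKM in T3, and 0.82, 3.57 and 0.4 FPKM in CK3. It had 2.84, 0.27 and 3.18 FPKM in T2 and 0.89, 0.65 and 0.7 FPKM in CK2, and 0.12, 0.02 and 0.14 FPKM in T1 against 0.46, 0.35 and 0.74 FPKM in CK1. MD03G1088100 (8'-hydroxylase 2, chromosome 3, 7280178 to 7287248) had 2.76, 1.61 and 1.11 FPKM in T3, and 10.4, 7.31 and 2.07 FPKM in CK3. It was at or under 0.29 FPKM in all 12 libraries of DAF30 and DAF60. In both genes the T3 and CK3 libraries overlapped, by 1 library of each group. The log2 fold change was 1.55 ± 0.45 for MD16G1285900 and -1.27 ± 0.34 for MD03G1088100 (adjusted p = 0.00552). In CK skin MD16G1285900 reached 1 FPKM only in CK3 replicate 2, too few for the filter, so its value is a description. The call for MD16G1285900 was lost without CK3 replicate 3 (1.20). The value for MD03G1088100 was -0.81 and not called (adjusted p = 0.0603) with libraries centred on their medians. At DAF150 against DAF60, the log2 change of MD03G1088100 was 1.38 ± 0.34 in T and 2.56 ± 0.34 in CK, given as a description because the gene passed the filter through DAF150 libraries only. The third gene, MD08G1027400, had group means of at most 0.25 FPKM.

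The jasmonate genes comprise 3 genes annotated as 23 kDa jasmonate-induced protein, a protein first described in barley leaves, and 2 methyltransferases that form methyl jasmonate. MD09G1163100 (chromosome 9, 13290334 to 13291645) had the largest rise in T of the 25 tested genes. At DAF30 it had 0.54, 0.83 and 1.61 FPKM in T1 and 0.46, 1.97 and 0.93 FPKM in CK1. At DAF60 it had 39.3, 38.7 and 29.65 FPKM in T2, against 6.98, 1.97 and 2.33 FPKM in CK2. At DAF150 it had 13.9, 18.1 and 6.12 FPKM in T3, against 0.04, 0.12 and 0.5 FPKM in CK3. T and CK overlapped at DAF30, and every T library lay above every CK library at DAF60 and DAF150. The log2 fold change was 3.09 ± 0.41 at DAF60 (adjusted p = 3.39e-05) and 3.39 ± 0.41 at DAF150 (adjusted p = 6.55e-06). The change in T skin at DAF60 against DAF30 was 4.23 ± 0.41 (adjusted p = 3.85e-06), which was the highest value of that comparison among the 1399 genes tested.

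The 2 neighbouring genes of the same annotation on chromosome 9 had their highest values in CK1. MD09G1162700 (13218642 to 13219654) had 0.66, 1.47 and 0.05 FPKM in T1 and 13.6, 1.81 and 0.54 FPKM in CK1. It lay at or under 0.1 FPKM in the other 12 libraries. It passed the filter through DAF30 libraries only, so its log2 change in CK skin at DAF60 against DAF30, -1.92 ± 0.52 (-2.60 without CK1 replicate 3), is a description. The difference between T1 and CK1 did not pass the test (adjusted p = 0.105). MD09G1162600, which was not tested, likewise had its highest value in CK1 replicate 1, at 12.7 FPKM, against 0.95 and 0.53 FPKM in the other 2 CK1 libraries. Reads of the 3 genes may be shared where their sequences are alike. The 2 methyltransferase genes had group means of at most 0.42 FPKM.

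The brassinosteroid gene MD17G1140000 is annotated like BRU1, a soybean enzyme that remodels xyloglucan in the cell wall. It had 3.27, 0.2 and 2.42 FPKM in T3, and 0.18, 0.15 and 0.37 FPKM in CK3. It had 0.19, 0.12 and 1.21 FPKM in T2 and 0.14, 0.13 and 0.02 FPKM in CK2, and 0, 0.09 and 0.03 FPKM in T1 against 0.33, 0.52 and 0.22 FPKM in CK1. The T3 value rested on 2 of the 3 libraries. The gene passed the filter through T libraries only, so the log2 fold change of 1.08 ± 0.34 at DAF150 is a description. The 3 cytokinin genes, for synthesis, activation and breakdown, were all near the lower end. The highest, the cytokinin dehydrogenase MD15G1208300, had 0.13, 0 and 0.61 FPKM in T3 and 0.04, 0.03 and 0 FPKM in CK3, and at most 0.14 FPKM in each of the other libraries.

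Of the 25 tested genes, 1 passed the filter through T libraries only (MD17G1140000), 1 through CK libraries only (MD14G1111500) and 6 through libraries of a single stage, so their calls in those contrasts count below without being evidence of a difference. The same holds for T against CK calls where the lower side had under 3 libraries at 1 FPKM or more. These genes are MD05G1053200, MD14G1090900 and MD16G1285900 (lower in CK), and MD00G1092500, MD03G1032300, MD07G1174000, MD08G1111200, MD10G1059700 and MD12G1028500 (lower in T). A stage call is a description where under 3 such libraries lie outside the higher stage, as for MD02G1054900. Counted together, 2 of the 25 tested genes were called higher and 2 lower in T1 than in CK1, beside 14.4% of all 1399 genes called (2.07% higher and 12.4% lower). In T2 against CK2, 4 were called higher and 9 lower, beside 71.4% of all genes (9.51% higher and 61.9% lower). The 9 that fell comprised 5 of the 7 tested ethylene genes, both tested gibberellin genes and 2 of the 11 tested auxin genes, and the 4 that rose comprised 3 auxin genes and 1 jasmonate gene. In T3 against CK3, 6 were called higher and 5 lower, beside 44.0% of all genes (12.6% higher and 31.5% lower). These were 3 higher and 2 lower of the auxin genes, 2 lower of the ethylene genes, 1 higher and 1 lower of the abscisic acid genes, and 1 higher each of the jasmonate and brassinosteroid genes. Over the mean of the 3 stages, 7 were called higher and 13 lower, beside 90.5% of all genes (15.4% higher and 75.1% lower). T and CK libraries did not overlap in 7 genes at DAF30, 17 at DAF60 and 8 at DAF150, beside 29.3%, 74.6% and 50.5% of all genes. The median log2 fold change of the 25 genes was -0.06, -0.21 and 0.00 at the 3 stages, beside -0.12, -1.06 and -0.37 over all genes tested.

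Since most genes of the table were lower in T, the direction of weak changes depended on the scaling. Centring each library on its median moved the median of all genes to 0.14, 0.10 and 0.10 at the 3 stages. The counts were then 2 higher and 2 lower at DAF30, 14 higher and 2 lower at DAF60 and 6 higher and 2 lower at DAF150. Beside them, 44 genes were higher and 119 lower of all genes at DAF30, 331 higher and 156 lower at DAF60, and 240 higher and 289 lower at DAF150. The 2 genes still lower at DAF60 were the ACC oxidase MD09G1114800 (-1.63) and the homolog MD12G1028500 (-0.80). Among the genes called higher at DAF60 only after centring was MD03G1088100 (1.07), which had at most 0.24 FPKM in T2 and CK2. MD09G1163100 was then higher by 4.25 at DAF60 and 3.85 at DAF150.

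**Figure D3:**
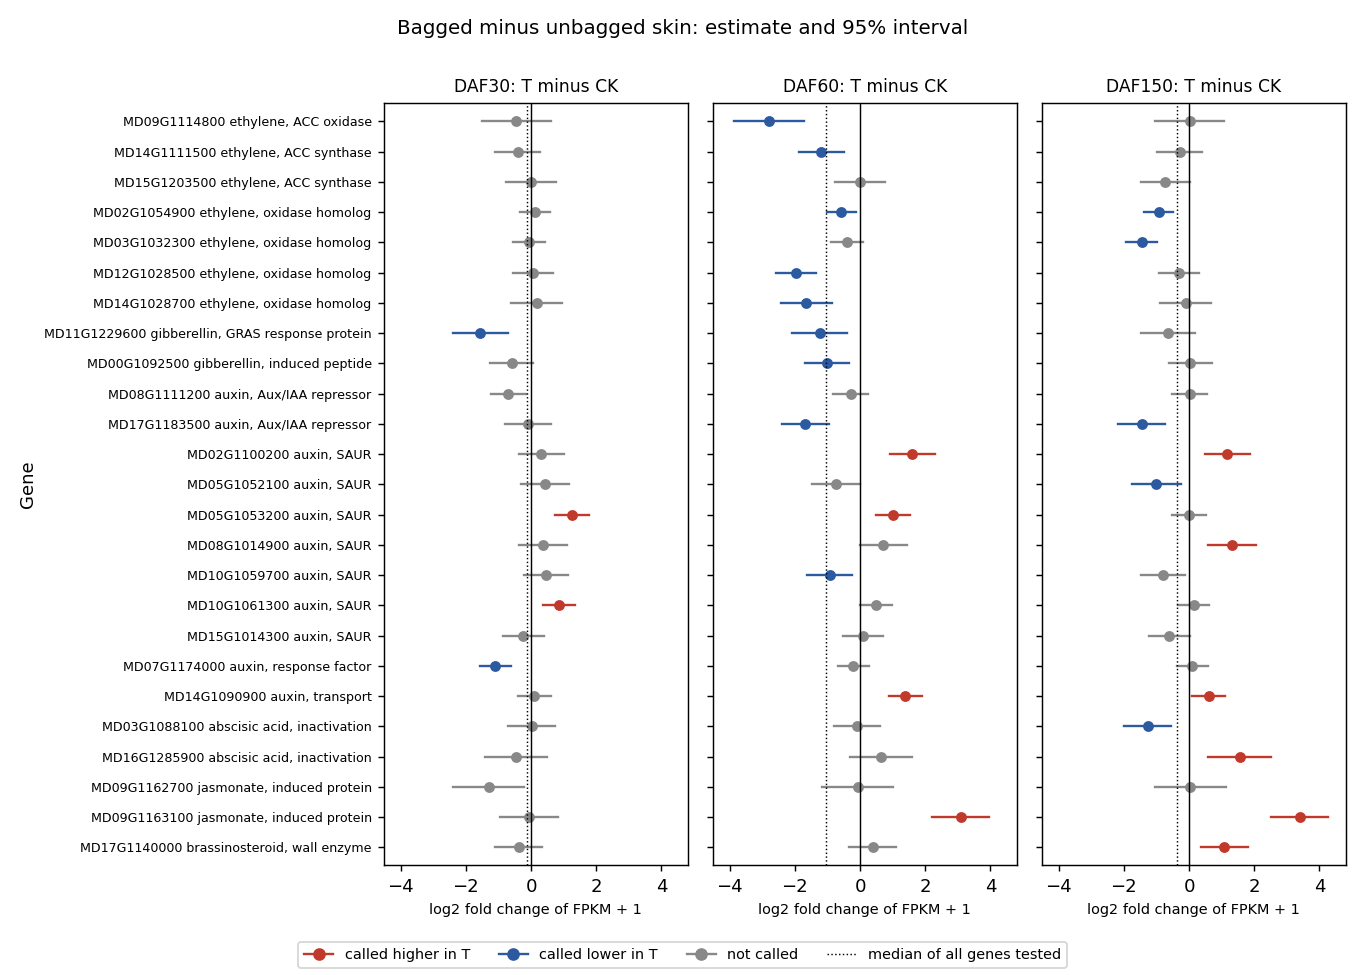
Log2 fold change of FPKM + 1 (T minus CK, points) with its 95% interval (lines) for the 25 tested genes at DAF30, DAF60 and DAF150, in red where called higher, blue where called lower and grey where not called. The dotted line is the median of all 1399 genes tested, -1.06 at DAF60, where 9 of the 25 genes were called lower and 4 higher.

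Between stages, in T2 against T1, 4 genes were called higher and 3 lower, beside 27.0% of all genes (5.86% higher and 21.2% lower). In CK2 against CK1, 6 were called higher and 3 lower, beside 44.8% (31.3% higher and 13.5% lower). In T3 against T2, 5 were called higher and 8 lower, beside 34.4% (18.2% higher and 16.2% lower), and in CK3 against CK2, 7 higher and 10 lower, beside 57.5% (17.7% higher and 39.7% lower). With libraries centred on their medians, the counts were 6 higher and 1 lower in T2 against T1 (137 and 154 of all genes) and 2 higher and 8 lower in CK2 against CK1 (237 and 418). They were 6 higher and 8 lower in T3 against T2 (255 and 271) and 9 higher and 5 lower in CK3 against CK2 (424 and 302). Of the calls, 2 of 7 in T2 against T1, 6 of 9 in CK2 against CK1, 8 of 13 in T3 against T2 and 11 of 17 in CK3 against CK2 held whichever single library was left out. A further 1 in CK2 against CK1 and 2 in CK3 against CK2 held where tested, in genes under the filter in 3 of the 18 fits.

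**Figure D4:**
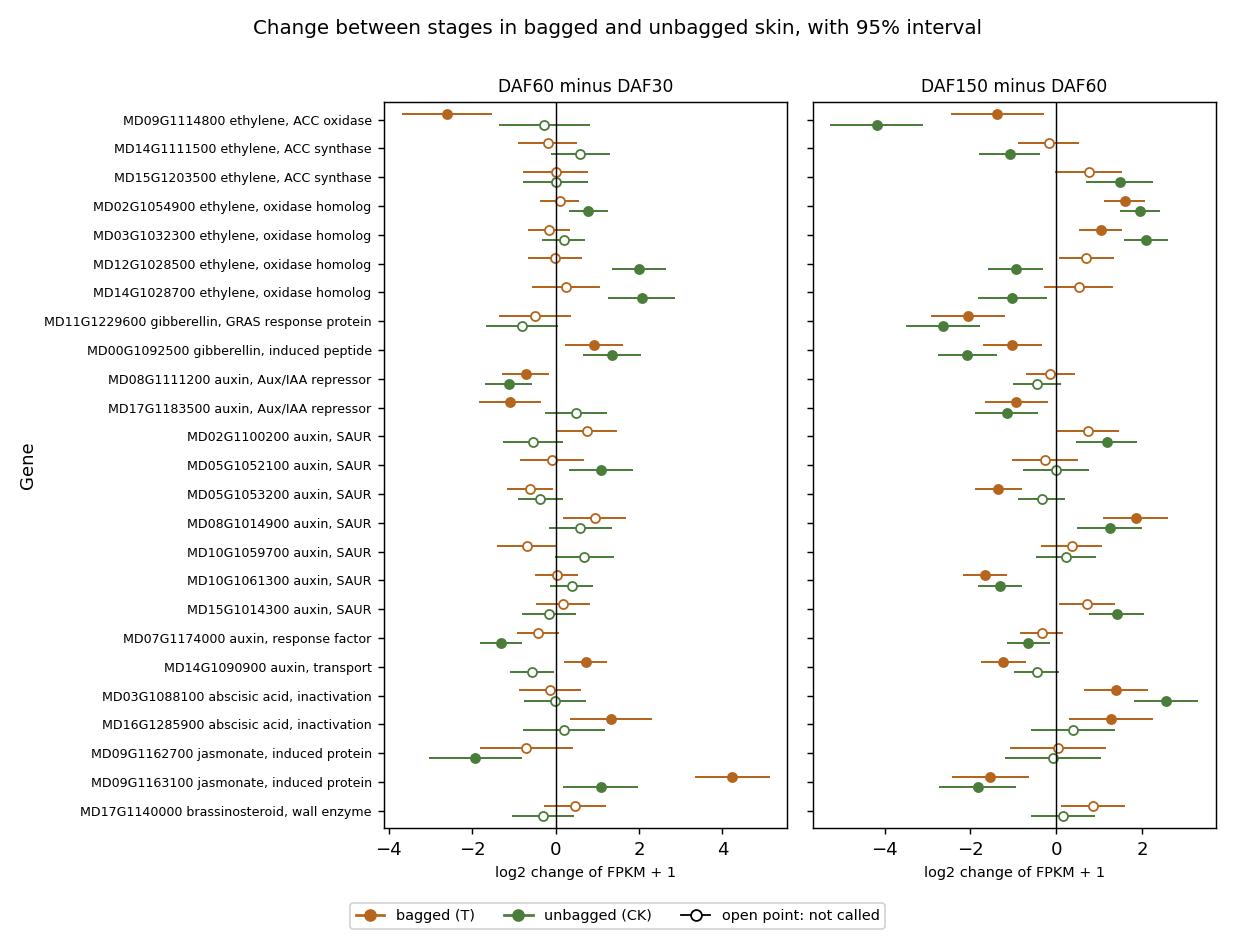
Log2 change of FPKM + 1 with its 95% interval for the 25 tested genes, at DAF60 minus DAF30 and at DAF150 minus DAF60, in T (brown) and CK (green), with filled points where called. The ACC oxidase MD09G1114800 changed by -2.60 in T in the earlier interval and by -4.18 in CK in the later one.

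The signed bagging difference (log2, T minus CK) itself changed between stages in several genes, and a rise can be a negative difference becoming smaller. From DAF30 to DAF60 it rose in 4 and fell in 5 of the 25 genes, beside 43.3% of all genes (6.15% higher and 37.2% lower). From DAF60 to DAF150 it rose in 3 and fell in 1, beside 19.3% of all genes (14.2% higher and 5.15% lower), and all 4 were ethylene genes. The 3 in which it rose were lower in T at DAF60, and their difference became smaller. The 1 in which it fell, MD03G1032300, passed the filter through DAF150 libraries only, so its change is a description. With libraries centred on their medians it rose in 10 and fell in 1 in the earlier interval, beside 303 and 105 of all genes, and rose in 2 and fell in 7 in the later one, beside 69 and 206.

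Other hormone-related genes of the table that the selecting words left out numbered 46, of which 28 were tested. In T against CK, 1 was called higher and 8 lower at DAF30, 1 and 16 at DAF60, and 4 and 7 at DAF150. Over all 1399 genes, 2.07% were called higher and 12.4% lower at DAF30, 9.51% and 61.9% at DAF60, and 12.6% and 31.5% at DAF150. The 14 ethylene-responsive transcription factors, proteins that act downstream of ethylene and of stress, summed to 82.8 to 129 FPKM in T1 against 211 to 274.5 FPKM in CK1 and to 48.2 to 82.1 FPKM in T2 against 107 to 235 FPKM in CK2. At DAF150 they summed to 7.91 to 21.1 FPKM in T3 and 5.78 to 10.3 FPKM in CK3, which overlapped. Of the 10 tested, 1 was called higher and 4 lower at DAF30, 5 were called lower at DAF60, and 3 were called higher at DAF150. The 14 protein phosphatases 2C, a family that includes repressors of abscisic acid signalling, summed to 59.6 to 111 FPKM in T1 against 231 to 314 FPKM in CK1. In T2 they summed to 31.4 to 101 FPKM and in CK2 to 80.1 to 213 FPKM, which overlapped, and 4 of the 8 tested were called lower at DAF30 and at DAF60. At DAF150 they summed to 20.4 to 29.55 FPKM in T3 against 31.6 to 37.1 FPKM in CK3, with 2 called lower. The 11 lipoxygenase and allene oxide genes, among them enzymes of jasmonate synthesis, summed to 115 to 217 FPKM in T2 against 741 to 876 FPKM in CK2, with 5 of the 7 tested called lower at DAF60. At DAF30 they summed to 414 to 427 FPKM in T1 against 507 to 1376 FPKM in CK1, with 0 called. At DAF150 they summed to 135 to 309 FPKM in T3 against 466 to 893 FPKM in CK3, with 4 called lower. The 4 scarecrow-like and DELLA genes, of the GRAS family, summed to 7.93 to 10.4 FPKM in T2 against 2.69 to 4.44 FPKM in CK2, and the 1 tested was called higher at DAF60 and DAF150. The remaining 3 genes of hormone enzymes and receptors summed to 4.5 to 7.18 FPKM in T2 against 18.04 to 25.43 FPKM in CK2, and both tested genes were called lower at DAF60.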

How the data were processed

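RNA was extracted from fruit skin and sequenced on the BGISEQ-500 platform. The authors used Bowtie2 for alignment to the apple genome GDDH13 v1.1 and deposited FPKM per gene and library with 2 decimals. For the Bowtie2 version, the counter and their test, nothing is stated in these sources. The deposited log2 ratios, p-values and q-values are the authors' own comparisons of T with CK and were not used, beyond finding that all 2856 genes have an absolute log2 ratio of at least 1 and a q-value of at most 0.000992, so the table holds selected genes only. Each library column was matched to its sample by title.

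Values were analysed as log2(FPKM + 1), which understates the change of low genes. The 1399 genes with at least 1 FPKM in at least 3 libraries entered a limma 3.58.1 fit (statmod 1.5.0, R 4.3.3) of 6 group means over 18 libraries with 12 residual degrees of freedom, trend and robust moderation. P-values were adjusted by Benjamini-Hochberg across these genes, and a call is an adjusted p of at most 0.05, two-sided. The fit takes the libraries as independent, whichever tree they came from. The procedure was tested on simulated data. Figures used matplotlib 3.10.9.

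The genes, the lists and the rules were chosen with earlier results of these data known. Values in every library are given for genes called with groups apart at a mean of at least 5 FPKM, for the highest gene of each hormone, and for the 3 largest rises and falls at that level. Ranges for other genes were chosen after their values were seen. Gene roles come from descriptions of the best match, some from other species. Alternatives were a pseudocount of 0.1, no filter, a replicate block, median centring, thresholds of 2-fold and 0.001, leaving out each library, and fitting the compared libraries only.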

Additional observations from a re-analysis of the deposited data

Results flagged for a closer look

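The difference between T and CK changed between stages, by the interaction term of the limma fit, in 9 of the 25 tested genes from DAF30 to DAF60 and in 4 from DAF60 to DAF150. From DAF30 to DAF60 the log2 difference rose by 3.15 for the jasmonate-induced protein MD09G1163100 (adjusted p = 0.00219), by 1.29 for SAUR72-like MD02G1100200 (adjusted p = 0.0339), by 1.29 for the auxin carrier MD14G1090900 (adjusted p = 0.00863) and by 0.88 for the auxin response factor MD07G1174000 (adjusted p = 0.0350). It changed by -2.34 for the ACC oxidase MD09G1114800 (adjusted p = 0.0177), by -2.02 for MD12G1028500 (adjusted p = 0.00282) and by -1.81 for MD14G1028700 (adjusted p = 0.0142), both oxidase homologs. It changed by -1.58 for IAA26-like MD17G1183500 (adjusted p = 0.0173) and by -1.39 for SAUR21-like MD10G1059700 (adjusted p = 0.0236). The value for MD09G1114800 was -2.95 without CK2 replicate 2. With libraries centred on their medians, 4 of these 5 negative changes were no longer called, at -1.43 for MD09G1114800 (adjusted p = 0.117), -0.91 for MD14G1028700 (adjusted p = 0.158), -0.68 for MD17G1183500 (adjusted p = 0.235) and -0.48 for MD10G1059700 (adjusted p = 0.384). That for MD12G1028500 was -1.11 and still called (adjusted p = 0.0184). The call for MD07G1174000 was lost with the pseudocount of 0.1 and with the compared libraries only. Its rise was a negative difference becoming smaller. MD07G1174000, MD10G1059700, MD12G1028500 and MD14G1090900 passed the filter only with libraries of the higher side, so their changes in both intervals are descriptions.

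From DAF60 to DAF150 the change was 2.81 for MD09G1114800 (adjusted p = 0.0117), and 3.42 without CK2 replicate 2. It was 1.65 for MD12G1028500 (adjusted p = 0.0114) and 1.55 for MD14G1028700 (adjusted p = 0.0475). For the homolog MD03G1032300 it was -1.05, given as a description because the gene passed the filter through DAF150 libraries only. Of these calls, 6 of 9 in the earlier interval and 2 of 4 in the later one held whichever single library was left out. The call for MD10G1059700 was lost without CK1 replicate 3. That for MD02G1100200 was lost without T1 replicate 1, T1 replicate 3, CK1 replicate 2, T2 replicate 3, CK2 replicate 1 or CK2 replicate 2, and that for MD07G1174000 without T1 replicate 2, T1 replicate 3, CK1 replicate 2, T2 replicate 3 or CK2 replicate 2. The value for MD10G1059700 was -1.59 to -1.24 over the 15 fits that tested it, and in the other 3 it was under the filter. Over all 18 libraries left out in turn, that for MD02G1100200 was 1.01 to 1.51 and that for MD07G1174000 0.67 to 1.05. In the later interval, the call for MD03G1032300 was lost without any 1 of 7 libraries (T2 replicates 1, 2 and 3, CK2 replicate 3, T3 replicates 2 and 3, CK3 replicate 1), with values of -1.21 to -0.73, and that for MD14G1028700 without any 1 of 12 libraries, with values of 1.28 to 1.94. The call for MD14G1028700 was also lost with the replicate block, with the pseudocount of 0.1, without the filter, with centring (0.85, adjusted p = 0.235) and with the compared libraries only, and that for MD03G1032300 with the pseudocount of 0.1 and with the compared libraries only.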

How the results depend on the processing

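The libraries set the precision, with 3 in a group and no fragment numbers per gene, and low FPKM values carry the least information. Without the filter, all 48 genes were tested and 20 were called in T2 against CK2, 19 in T3 against CK3, 27 in CK3 against CK2 and 8 for the change of the difference from DAF60 to DAF150. With median centring, 8 were called over the mean of the stages (8 higher and 0 lower) and 9 for the change from DAF60 to DAF150. At thresholds of 2-fold and an adjusted p of 0.001, the counts were 0, 6 and 2 in T against CK at the 3 stages, 4 over their mean, 1 in T2 against T1, 6 in T3 against T2, 3 in CK2 against CK1, 8 in CK3 against CK2, and 0 and 0 for the changes of the difference. With only the compared libraries, 1 gene was called at DAF30 and 7 at DAF150. Leaving out 1 library gave 3 to 5 calls at DAF30, 10 to 14 at DAF60, 8 to 12 at DAF150, 15 to 21 over the mean, 3 to 7 in T2 against T1, 9 to 15 in T3 against T2, 7 to 9 in CK2 against CK1, 14 to 18 in CK3 against CK2, 7 to 10 for the change from DAF30 to DAF60 and 2 to 5 for that from DAF60 to DAF150. The 3 calls in T2 against T1 came without T1 replicate 1, T1 replicate 3, T2 replicate 2 or T2 replicate 3, and the 2 calls in the last comparison without T2 replicate 3, T3 replicate 3 or CK3 replicate 1.

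Median centring turned the sign of 11 of 107 single-gene calls, since it is set by the selected genes themselves. At DAF60 the values were 0.15 for MD00G1092500, 0.59 for MD02G1054900 and 0.22 for MD10G1059700. Over the mean of the stages they were 0.10 for MD00G1092500, 0.16 for MD02G1054900, 0.18 for MD03G1088100, 0.23 for MD07G1174000, 0.30 for MD08G1111200, 0.20 for MD10G1059700 and 0.10 for MD14G1028700. In CK3 against CK2 it was 0.0087 for MD07G1174000. Centring ended 28 further calls without a change of sign. The pseudocount of 0.1 ended 12 calls, no filter 13 and the compared libraries only 19. Among T against CK at single stages, the pseudocount ended the calls of MD10G1061300 at DAF30 and MD00G1092500 at DAF60, and no filter that of MD14G1090900 at DAF150. The compared libraries only ended those of MD07G1174000, MD10G1061300 and MD11G1229600 at DAF30 and of MD02G1054900, MD03G1088100, MD08G1014900, MD16G1285900 and MD17G1140000 at DAF150.

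The deviations of same-numbered T and CK libraries had correlations of -0.347 to 0.175 over 9 pairs, 5 of them over 0.1, and those of other-numbered libraries -0.399 to 0.436 over 18, 4 of them over 0.1. Since not every same-numbered pair was over 0.1, the numbers were not taken as pairs. This check cannot show whether T and CK fruits shared trees. With the replicate block, 4 of 107 calls were lost (MD16G1285900 over the mean of the stages, MD09G1163100 in CK2 against CK1, MD08G1111200 in T2 against T1 and MD14G1028700 for the change from DAF60 to DAF150), and the counts were 4 at DAF30, 14 at DAF60, 12 at DAF150 and 20 over the mean of the stages.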
